A study of Mus musculus with 69 samples.

Results

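The genes described here are 10 inflammasome and interleukin-1 (IL-1) family genes, Nlrp3, Nlrp1b, Pycard, Casp1, Casp4, Il1a, Il1b, Il18, Il1rn and Gsdmd. They were chosen by symbol, and all 10 were found among the 24537 genes listed in each of 3 expression tables and among the 24527 genes of each F1 table. RNA was measured by sequencing of polyadenylated RNA in bone marrow-derived macrophages (BMDMs), cells grown from mouse bone marrow with macrophage colony-stimulating factor. The first table held 29 libraries of C57 (C57BL/6J), BALB (BALB/cJ), NOD (NOD/ShiLtJ), PWK (PWK/PhJ) and SPRET (SPRET/EiJ) BMDMs, left untreated (basal) or given interleukin-4 (IL-4) at 20 ng/ml for 24 hours, with 3 libraries a group except 2 for basal PWK. The second held 16 libraries of C57 and SPRET BMDMs at 0, 1, 6 and 24 hours of IL-4, and the third 16 libraries at the same times from Egr2 fl/fl mice (Egr2WT) and from LyzM-Cre Egr2 fl/fl mice (Egr2MKO), with 2 libraries a group in both. In Egr2MKO mice the LyzM promoter drives Cre in myeloid cells, the floxed Egr2 alleles are carried by both genotypes, and the strain background of these mice was not given in the sources used here. A further 8 libraries came from F1 mice of C57 crossed with NOD or with SPRET, 2 basal and 2 with 24-hour IL-4 for each cross. All mice were female and 8 to 12 weeks old according to the methods. The methods call the libraries biological replicates, but no source ties a library to an animal, so the p-values measure the spread between these libraries.

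An inflammasome is a protein platform that macrophages assemble when a sensor such as NLRP3 or NLRP1B detects danger or infection. The adaptor ASC, made from Pycard, links the sensor to caspase-1, which cleaves the precursors of IL-1β and IL-18 and the pore-forming protein gasdermin D; caspase-11, made from Casp4, cleaves gasdermin D after sensing bacterial lipopolysaccharide in the cytosol. IL-1α acts on the same receptor as IL-1β, and the receptor antagonist made from Il1rn binds that receptor without starting a signal. IL-4 drives macrophages towards an alternative, less inflammatory state through the transcription factor STAT6.

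In the mouse genome (mm10), the 3 IL-1 receptor ligands lie on chromosome 2, with Il1a at chr2:129299610-129309972 and Il1b at chr2:129364578-129371139, both on the minus strand, and Il1rn at chr2:24345371-24351491 on the plus strand. Casp1 (chr9:5298517-5307281) and Casp4 (chr9:5308849-5336791) are neighbours, and Il18 lies at chr9:50565368-50581837, all on the plus strand. The sensors lie on chromosome 11, Nlrp3 at chr11:59542686-59566956 on the plus strand and Nlrp1b at chr11:71153102-71201456 on the minus strand in the table of the 5 strains. Pycard lies at chr7:127991373-127993867 on the minus strand and Gsdmd at chr15:75862339-75867404 on the plus strand. All 10 are annotated as protein-coding in GENCODE, and the values count reads in exons. Nlrp1b has closely related neighbours, and its gene model ended at 71230733 in the tables of the time course and the Egr2 knockout, so its values are uncertain and are not set across tables.

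RefSeq promoter sequence on GRCm38.p6, the assembly of mm10, was held for 9 of the 10 genes. The 250 bases before the start site are shown for Il1b, Il1rn and Nlrp3, the members called most often in the comparisons of the 5 strains, at the start sites where the gene models of the 5-strain table begin. Capitals mark matches on either strand to 6 motifs, which were STAT6 (TTC and GAA with 4 bases between them), AP-1 (TGANTCA), EGR (GTGGGCG), PU.1 (GGAAGT), C/EBP (TTGCNNAA) and an NF-kB motif. The windows cover chr2:129371140-129371389 (minus strand), chr2:24345121-24345370 (plus strand) and chr11:59542436-59542685 (plus strand), and they give the reference C57 sequence, not that of the other strains.
Il1b: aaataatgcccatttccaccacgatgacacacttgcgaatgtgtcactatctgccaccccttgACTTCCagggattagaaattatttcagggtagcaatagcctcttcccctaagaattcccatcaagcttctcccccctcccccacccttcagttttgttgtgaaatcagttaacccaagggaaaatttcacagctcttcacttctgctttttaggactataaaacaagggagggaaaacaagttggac
Il1rn: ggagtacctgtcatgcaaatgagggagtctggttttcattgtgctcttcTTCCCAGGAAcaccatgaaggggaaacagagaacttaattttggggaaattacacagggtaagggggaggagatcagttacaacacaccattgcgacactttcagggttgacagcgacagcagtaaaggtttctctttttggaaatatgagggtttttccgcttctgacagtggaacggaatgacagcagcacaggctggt
Nlrp3: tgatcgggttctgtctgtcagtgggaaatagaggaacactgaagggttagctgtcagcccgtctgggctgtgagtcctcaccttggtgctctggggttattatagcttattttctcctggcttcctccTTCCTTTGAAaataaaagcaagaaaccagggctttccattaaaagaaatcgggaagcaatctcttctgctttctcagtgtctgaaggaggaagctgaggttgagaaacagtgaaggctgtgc
The capitals in Il1rn and Nlrp3 are STAT6 matches that begin at positions -201 and -122 from the start site, and those in Il1b are a PU.1 match, on the opposite strand, at position -187. Of 32851 promoter windows of this length, 5.85% held the STAT6 motif and 19.74% the PU.1 motif, while the AP-1, EGR, C/EBP and NF-kB motifs were held by 6.75%, 7.02%, 9.56% and 3.9%. A match describes these letters and was not tested for binding.

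The libraries held 7.02 to 22.5 M (mega) tags in the 5 strains, 5.70 to 24.0 M in the time course and 4.69 to 32.9 M in the Egr2 table. Macrophage markers were high in every library of the 5 strains, with Cd68 at 2456 to 4012 TPM (transcript abundance normalised for gene length and library depth) and Adgre1 at 240 to 649 TPM, while Mertk reached only 8.02 TPM. Of 8 neutrophil markers, Ly6g was listed at 0 in 25 of 29 libraries and Mpo and Elane stayed at or below 1.31 TPM, while S100a8 ranged from 12.7 to 394 TPM and S100a9 from 0.13 to 274 TPM. The summed level of the list was 106 to 131 TPM in basal C57, 53.0 to 60.0 TPM in BALB, 40.9 to 52.7 TPM in NOD, 549 to 555 TPM in PWK and 344 to 404 TPM in SPRET. After IL-4 it was 15.2 to 24.4 TPM over the C57, BALB and NOD libraries, 547 to 598 TPM in PWK and 249.1 to 274 TPM in SPRET, so it was high in PWK and SPRET, as Il1b was, and lower after IL-4 in every strain but PWK. In PWK the fibroblast list also summed to 202 to 210 TPM under basal conditions, against 4.81 to 5.91 TPM in C57, with Dcn at up to 208 TPM, and Col1a1 stayed at or below 0.066 TPM in all 29 libraries. A list of 6 macrophage markers summed to 23165 to 23879 TPM in basal C57, 29081 to 30180 TPM in BALB, 17742 to 18663 TPM in NOD, 9594 to 9713 TPM in PWK and 27129 to 27855 TPM in SPRET. The largest part of this sum in every library was a single gene, Lyz2, at 5278 to 25933 TPM. The sum therefore follows Lyz2 more than the other markers. After IL-4 the sum was 16527 to 17768 TPM in C57, 21513 to 23070 TPM in BALB, 17320 to 18503 TPM in NOD, 9308 to 9610 TPM in PWK and 26273 to 26651 TPM in SPRET. It was thus lowest in PWK under both conditions. After IL-4 it was lower without overlap in C57, BALB and SPRET, and it overlapped in NOD and PWK. The part of these markers in the following results was not tested, and in bulk RNA fewer cells of a type cannot be told apart from less RNA per cell.

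Levels of the members spanned a wide range. In basal C57 BMDMs the mean level per length was 119 ± 6.43 TPM for Il1rn (SD, n = 3), 95.6 ± 2.89 TPM for Casp1, 94.3 ± 3.48 TPM for Gsdmd, 57.6 ± 1.36 TPM for Pycard and 49.5 ± 4.28 TPM for Casp4. Il1b stood at 28.8 ± 5.10 TPM and Il1a at 21.1 ± 1.52 TPM. The lowest were Il18 at 12.7 ± 3.46 TPM, Nlrp3 at 8.50 ± 0.79 TPM and Nlrp1b at 0.58 ± 0.11 TPM. Across the 29 libraries, strain took the largest share of the sum of squares of log2(TPM + 1) for 9 of the 10 genes, from 53.67% for Il18 to 97.06% for Nlrp1b, against a median of 81.19% over all 11907 genes tested. For Nlrp3 the largest share, 46.92%, went to IL-4, where the median of all genes was 1.99%.

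**Figure D1:**
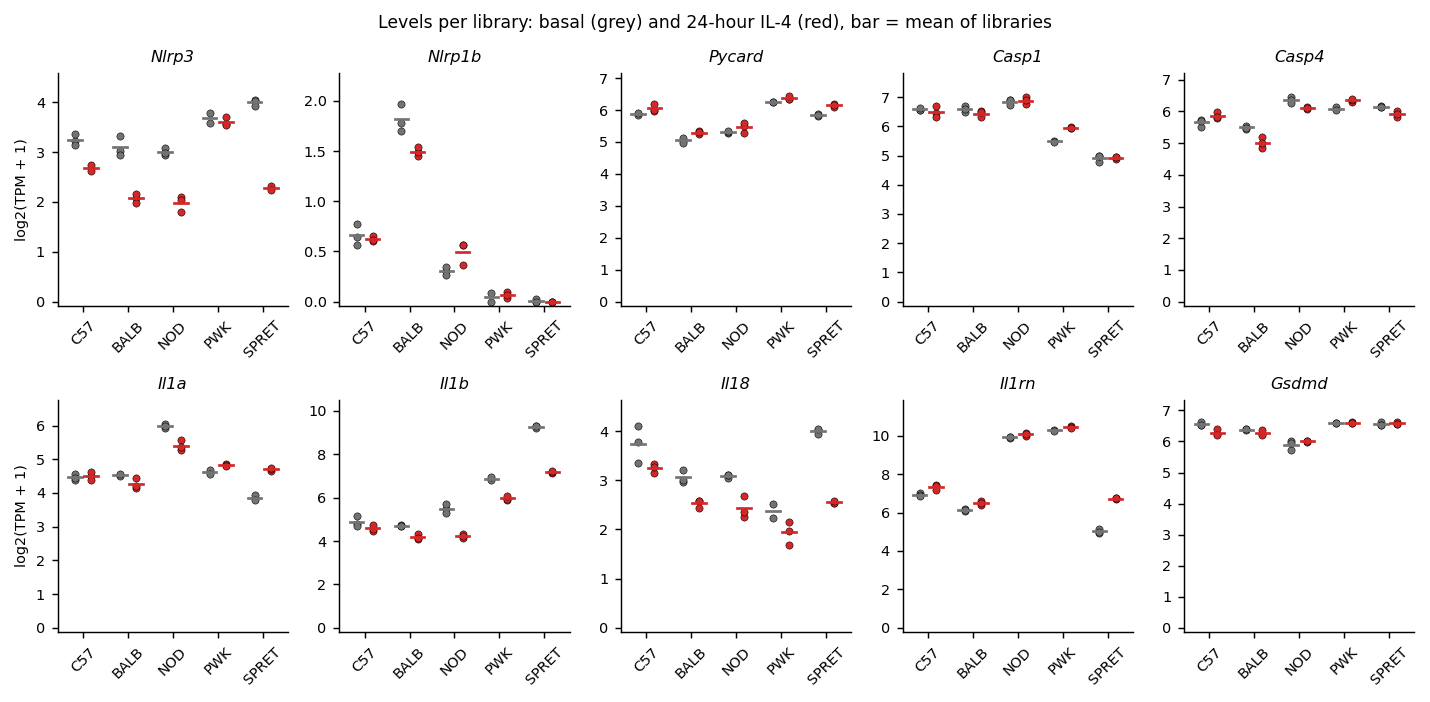
Level of each of the 10 genes, as log2(TPM + 1), in every library of the 5 strains under basal conditions (grey) and after 24-hour IL-4 (red); bars are means of 3 libraries, or 2 for basal PWK. Il1b is highest in SPRET, where its 3 basal libraries lie at 595 to 629 TPM, and Il1rn is highest in PWK and NOD.

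Which members respond to 24 hours of IL-4 was compared within each strain. Il1b, encoding the main secreted IL-1 of macrophages, and Il18 fell in 5 of 5 strains, and Nlrp3 fell in 4 of 5, while Il1rn rose in 4 of 5. Of these, Il1b in C57, Il18 in C57 and PWK and Il1rn in NOD did not pass the test in every fit that left out 1 library. A gene was counted as changed at an adjusted p under 0.05 in limma on log2(TPM + 1), with Benjamini-Hochberg adjustment over all 11907 genes, and as called when the fold change also passed 2. By that stricter rule 7 of 50 gene and strain pairs were called. SPRET had 4 of 10 members called (background 3.94% of all genes), NOD 2 (background 1.19%), BALB 1 (background 2.08%), and C57 (background 3.8%) and PWK (background 2.08%) 0. By the adjusted p alone, C57 had 3 members higher (background 15%) and 4 lower (background 20.5%), and BALB 2 higher (background 9.45%) and 6 lower (background 24.8%). NOD had 1 higher (background 28.2%) and 5 lower (background 6.07%), PWK 2 higher (background 18.6%) and 2 lower (background 6.08%), and SPRET 3 higher (background 31.4%) and 4 lower (background 12.9%).

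Nlrp3 fell from 15.6, 15.2 and 14.2 TPM to 3.85, 4.01 and 3.71 TPM in SPRET, the largest fall of this sensor among the strains. The fitted change was -1.72 on the log2 scale (SE 0.09, adjusted p = 6.9e-14). In BALB it fell from 9.05, 7.17 and 6.71 TPM to 3.25, 3.45 and 2.95 TPM, and in NOD from 6.68, 7.50 and 6.95 TPM to 3.27, 2.48 and 3.12 TPM, a log2 change of -1.03 in both. These groups do not overlap, but both values lie near the fold threshold. The BALB value was -0.91 without BALB_basal replicate 1 and -0.98 without BALB_24hIL4 replicate 3, and the NOD value was -0.94 without NOD_24hIL4 replicate 2 and -0.99 without NOD_basal replicate 2. In C57 Nlrp3 fell by 0.57 on the log2 scale, from 8.33, 9.36 and 7.81 TPM to 5.37, 5.67 and 5.11 TPM. In PWK the 2 basal libraries at 12.8 and 10.9 TPM overlap the IL-4 libraries at 10.8, 12.03 and 10.7 TPM, with a log2 change of -0.08 (SE 0.10, adjusted p = 0.65).

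The fall of Il1b was largest in the strain with the highest basal level. In SPRET the 3 libraries went from 622, 595 and 629 TPM to 141, 144 and 148 TPM, a log2 change of -2.08 (SE 0.10, adjusted p = 4.3e-15), and in NOD from 43.5, 38.0 and 50.9 TPM to 18.7, 16.8 and 17.6 TPM, a log2 change of -1.26 (SE 0.10). In PWK Il1b fell by 0.90 on the log2 scale, from 110 and 124 TPM to 58.9, 60.1 and 66.7 TPM, which became -1.03 with median-ratio scaling of the libraries. BALB and C57 had smaller changes of -0.52 and -0.30, and in C57 the basal libraries at 26.9, 24.9 and 34.6 TPM overlap the IL-4 libraries at 21.1, 22.3 and 25.9 TPM. The C57 value of Il1b was -0.16 with an adjusted p of 0.19 in limma without C57_basal replicate 3, and it also missed the threshold without C57_24hIL4 replicate 1 (0.099) or 2 (0.065) and with median-ratio scaling (0.097). Il18, whose product needs caspase-1 to mature, fell by 1.45 on the log2 scale in SPRET, from 15.2, 14.4 and 15.5 TPM to 4.78, 4.82 and 5.00 TPM. In the other strains its log2 change lay between -0.66 in NOD and -0.44 in PWK. The Il18 value in C57, -0.49, was -0.31 with an adjusted p of 0.079 in limma without C57_basal replicate 2. In PWK it was -0.30 with an adjusted p of 0.30 without PWK_basal replicate 1, and the adjusted p was 0.19 and 0.059 without PWK_24hIL4 replicate 2 or 1.

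Il1a differed in direction between strains. In SPRET it rose from 13.4, 14.4 and 12.7 TPM to 24.0, 25.4 and 25.9 TPM (log2 change 0.85, SE 0.08, adjusted p = 2.6e-09), and in NOD it fell from 64.9, 59.7 and 62.6 TPM to 46.7, 37.6 and 39.8 TPM (log2 change -0.59, SE 0.08, adjusted p = 3.8e-06). BALB had a smaller fall of -0.28, with an adjusted p of 0.069 in limma without BALB_24hIL4 replicate 2 and 0.13 with median-ratio scaling, and in C57 the values overlap, with a change of 0.04. The antagonist gene Il1rn rose most in SPRET, from 29.9, 34.6 and 31.2 TPM to 103, 105 and 107 TPM, a 3.29-fold higher mean (log2 change 1.69, SE 0.07, adjusted p = 7.5e-17). It rose by 0.41 in C57, 0.37 in BALB and 0.17 in NOD on the log2 scale, with an adjusted p of 0.049 in limma in NOD, where median-ratio scaling turned the value to -0.02 and 5 of the 6 fits without 1 library gave an adjusted p of 0.062 to 0.17. In PWK the change was 0.19 with an adjusted p of 0.07, although its basal libraries at 1251 and 1211 TPM lie below all 3 IL-4 libraries at 1354 to 1465 TPM.

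The adaptor and executioner genes moved little. Pycard rose in 3 of 5 strains, by 0.31 in SPRET, 0.24 in BALB and 0.19 in C57 on the log2 scale. Casp4 fell in BALB (-0.49), NOD (-0.26) and SPRET (-0.23) and rose in PWK (0.26) and C57 (0.21). Of these, the BALB change of Casp4 alone passed the test in every fit without 1 library. The adjusted p in limma was 0.054 in NOD without NOD_basal replicate 1, 0.071 in SPRET without SPRET_24hIL4 replicate 1, and 0.18 and 0.055 in PWK without PWK_basal replicate 2 or PWK_24hIL4 replicate 3. In C57 the Casp4 value was 0.13 and 0.15 without C57_basal replicate 2 or C57_24hIL4 replicate 2 (adjusted p = 0.19 and 0.15). The Pycard value in C57 was 0.12 without C57_24hIL4 replicate 3 and 0.17 without C57_basal replicate 2 (adjusted p = 0.15 and 0.068). With median-ratio scaling the adjusted p was 0.089 for Pycard in SPRET and 0.25 for Casp4 in PWK. Casp1 rose only in PWK among the 5 strains, from 44.5 and 43.3 TPM to 60.4, 62.1 and 60.1 TPM (log2 change 0.46, SE 0.09, adjusted p = 0.00032). Gsdmd fell by 0.29 in C57 alone, from 92.2, 98.3 and 92.3 TPM to 75.1, 82.8 and 73.2 TPM, and Nlrp1b fell by 0.32 in BALB alone, with an adjusted p of 0.13 in limma at a pseudocount of 0.1 TPM.

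**Figure D2:**
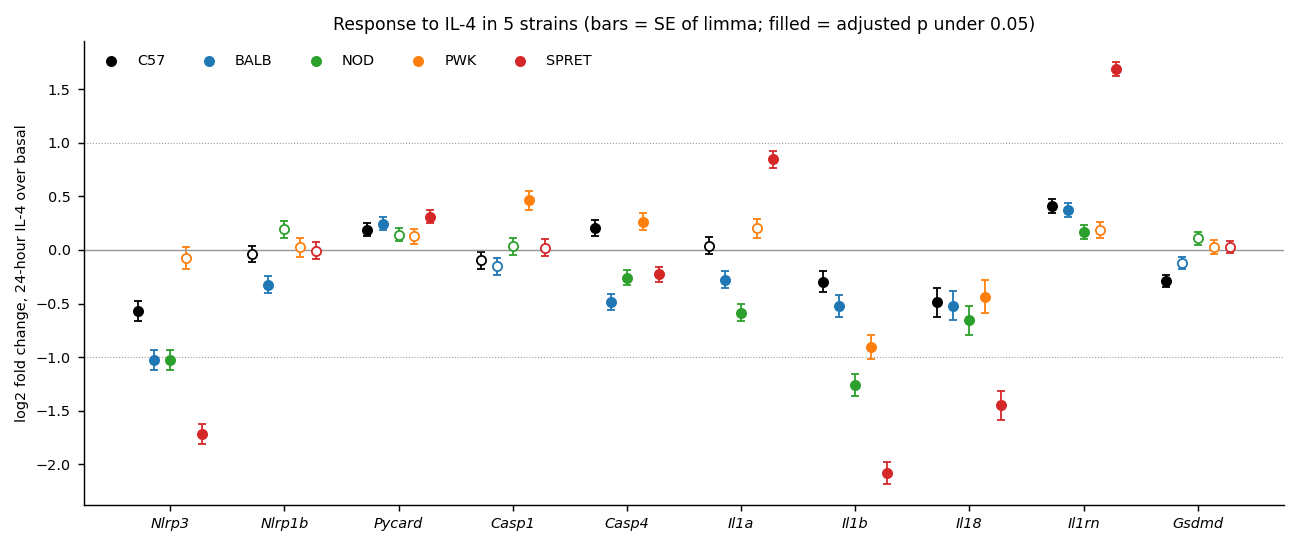
Log2 fold change of the 10 genes from basal to 24-hour IL-4 in each strain, with the SE of limma; filled points have an adjusted p under 0.05 and dotted lines mark 2-fold. SPRET holds the lowest values for Nlrp3 (-1.72), Il1b (-2.08) and Il18 (-1.45) and the highest for Il1rn (1.69).

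Basal levels were then compared with C57. The 4 strain comparisons share the 3 basal C57 libraries, so their values are given side by side. In all 10 of 40 pairs were called, with 4 members in PWK (background 13.3%), 3 in SPRET (background 18.1%), 2 in NOD (background 16.9%) and 1 in BALB (background 4.81%). By the adjusted p alone 10 members differed in NOD (background 74.2%), 8 in PWK (background 61.3%), 7 in SPRET (background 68.4%) and 5 in BALB (background 43.2%). These 10 calls stayed 10 in each fit that left out 1 library.

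Il1b and Il1rn spanned the widest ranges of the 9 members other than Nlrp1b. Basal Il1b ranged 24.7-fold, in the order SPRET, PWK, NOD, C57 and BALB, where C57 and BALB overlap. SPRET was 21.4-fold above C57 (log2 difference 4.38, SE 0.10, adjusted p = 1.7e-22) and PWK 4.05-fold above it (log2 difference 1.99, SE 0.11). NOD was higher than C57 by 0.60 on the log2 scale, and BALB differed by -0.19 with an adjusted p of 0.14.

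Basal Il1rn ranged 38.6-fold, in the order PWK, NOD, C57, BALB and SPRET, and none of these neighbours overlap. NOD libraries held 966, 928 and 984 TPM and PWK libraries 1251 and 1211 TPM, against 126, 118 and 114 TPM in C57, log2 differences of 3.00 and 3.36 (SE 0.07 in both). BALB, at 72.6, 66.3 and 68.3 TPM, was lower by 0.78 on the log2 scale, and SPRET was lower by 1.87 (SE 0.07, adjusted p = 2.1e-18). Within a library the Il1rn level was 0.05 to 0.06 times the Il1b level in basal SPRET, 3.29 to 4.73 times in C57, 9.80 to 11.4 times in PWK and 19.3 to 24.4 times in NOD. After IL-4 these ratios were 0.72 to 0.73 in SPRET, 5.43 to 8.13 in C57, 20.3 to 24.9 in PWK and 60.1 to 62.4 in NOD, so in these 4 strains the ratio lay higher after IL-4 than before without overlap. The same held in BALB, with 2.70 to 2.86 before and 5.17 to 5.35 after. In the time course the basal ratio was 39.1 to 55.3 in C57 and 0.425 to 0.45 in SPRET. The C57 range there lay above the basal NOD range given here. The order of the strains by this ratio is thus given for the 5-strain libraries only.

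Casp1, the central caspase of the inflammasome, was low in PWK and SPRET. Its basal libraries held 93.6, 94.2 and 98.9 TPM in C57, 44.5 and 43.3 TPM in PWK (log2 difference -1.10, SE 0.09) and 26.4, 30.7 and 30.4 TPM in SPRET (log2 difference -1.68, SE 0.08, adjusted p = 1.0e-15). With median-ratio scaling the PWK value was -0.90, under the fold threshold. Its neighbour Casp4 went the other way in the same strains, higher than C57 by 0.43 in PWK and 0.49 in SPRET, so that the Casp1 level was 1.78 to 2.11 times the Casp4 level in C57 libraries, 0.64 to 0.66 times in PWK and 0.37 to 0.44 times in SPRET. In NOD both caspase genes were higher than in C57, Casp4 by 0.72 and Casp1 by 0.25, and with median-ratio scaling by 1.12, past 2-fold, and 0.65.

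Among the remaining members, Il1a was called in NOD, with 64.9, 59.7 and 62.6 TPM against 19.9, 22.8 and 20.7 TPM in C57 (log2 difference 1.52, SE 0.08, adjusted p = 1.0e-14). Il18 was called in PWK, at 4.71 and 3.73 TPM against 9.22, 16.1 and 12.7 TPM (log2 difference -1.37, SE 0.15). Nlrp1b was called in BALB, at 2.92, 2.43 and 2.25 TPM against 0.71, 0.57 and 0.48 TPM (log2 difference 1.15, SE 0.08). It was listed at 0 in 2 of 3 basal SPRET libraries and reached at most 0.06 TPM in basal PWK, and reads of a related gene copy could not be told apart from its own. Nlrp3 was higher than C57 in SPRET by 0.76 and in PWK by 0.44, and lower in NOD by 0.24, a value that turned to 0.12 with median-ratio scaling and had an adjusted p of 0.058 to 0.13 in limma without C57_basal replicate 2, NOD_basal replicate 1 or NOD_basal replicate 3. Pycard was lower in BALB (-0.82) and NOD (-0.56) and higher in PWK (0.37), and Gsdmd was lower in NOD (-0.68) and BALB (-0.19). With median-ratio scaling the NOD values were -0.17 for Pycard (adjusted p = 0.054) and -0.28 for Gsdmd.

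After 24 hours of IL-4, 6 of 40 pairs were called against the shared C57 IL-4 libraries. PWK had 3 members called (background 12.2%), SPRET 2 (background 20.6%), NOD 1 (background 13.2%) and BALB 0 (background 5.39%), although 8 of its 10 members changed by the adjusted p alone (background 44.4%). Il1b was 6.24-fold above C57 in SPRET (log2 difference 2.60, SE 0.10) and 2.68-fold in PWK (1.39, SE 0.10), and Il1rn was 8.79-fold above it in PWK (3.13, SE 0.07) and 6.78-fold in NOD (2.76, SE 0.07). Casp1 stayed lower in SPRET (-1.56, SE 0.08) and Il18 lower in PWK (-1.31, SE 0.14). The order of Il1rn became PWK, NOD, C57, SPRET and BALB, again without overlap between neighbours. Nlrp3, which SPRET had highest under basal conditions, was highest in PWK after IL-4, at 10.8, 12.03 and 10.7 TPM against 5.37, 5.67 and 5.11 TPM in C57 and 3.85, 4.01 and 3.71 TPM in SPRET. PWK was above C57 by 0.93 (SE 0.09, adjusted p = 4.3e-09) and SPRET below it by 0.39 (SE 0.09, adjusted p = 0.00056) on the log2 scale.

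Whether a strain's response differed from that of C57 was tested with an interaction contrast. SPRET had 3 of 10 members called (background 3.45%) and BALB (background 1.49%), NOD (background 2.47%) and PWK (background 2.26%) had 0. By the adjusted p alone 7 members differed in SPRET (background 33.4%), 5 in NOD (background 33.3%), 4 in PWK (background 22.4%) and 2 in BALB (background 15.8%). The response of Il1b in SPRET was below that in C57 by 1.79 on the log2 scale (SE 0.14, adjusted p = 3.5e-10) and that of Nlrp3 by 1.15 (SE 0.13, adjusted p = 2.5e-07), while that of Il1rn was above it by 1.28 (SE 0.09, adjusted p = 8.6e-11). Il18 differed by -0.96 (SE 0.19) and Il1a by 0.81 (SE 0.11) in SPRET. Without C57_basal replicate 2 the Il18 value was -1.14, and without C57_24hIL4 replicate 2 it was -1.01. In NOD Il1b fell more than in C57 (difference -0.96, SE 0.14, adjusted p = 1.2e-05), and this passed 2-fold without C57_basal replicate 3 (-1.10), NOD_basal replicate 2 (-1.07), C57_24hIL4 replicate 1 (-1.02) or NOD_24hIL4 replicate 1 (-1.004). In PWK Nlrp3 differed the other way, by 0.49 (SE 0.14, adjusted p = 0.013), with an adjusted p of 0.11 in limma and a value of 0.39 without PWK_basal replicate 2. Casp4 responded below C57 in BALB (-0.69), NOD (-0.46) and SPRET (-0.43). Gsdmd responded above C57 in NOD, PWK and SPRET by 0.40, 0.32 and 0.32, and none of these passed an adjusted p of 0.05 with median-ratio scaling, where the values were 0.16, 0.14 and 0.12.

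The time course compared 1, 6 and 24 hours of IL-4 with basal in C57 and SPRET BMDMs. Called pairs came to 9 of 60. At 1 hour 0 members were called in C57 (background 0.877%) and in SPRET (background 1.89%), while 1 (background 3.95%) and 4 (background 8.75%) changed by the adjusted p alone. At 6 hours 1 member was called in C57 (background 2.13%) and 3 in SPRET (background 4.57%), and at 24 hours 2 (background 5.76%) and 3 (background 5.62%).

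Nlrp3 was lower than at basal by 6 hours in both strains. In C57 it stood at 26.1 and 23.1 TPM at basal, 30.4 and 30.1 TPM at 1 hour, 12.02 and 11.3 TPM at 6 hours and 6.75 and 9.97 TPM at 24 hours. In SPRET it went from 27.9 and 30.5 TPM to 18.7 and 18.6 TPM at 1 hour, 5.14 and 4.41 TPM at 6 hours and 4.46 and 5.19 TPM at 24 hours. The SPRET fall passed the test at 1 hour (log2 change -0.62, SE 0.14, adjusted p = 0.012), but 3 of the 4 fits without 1 library gave an adjusted p of 0.062 to 0.089, all except that without SPRET_timecourse_basal replicate 1. It was -2.39 at 6 hours and -2.38 at 24 hours. In C57 it was 0.29 with an adjusted p of 0.39 in limma at 1 hour, then -1.01 at 6 hours and -1.47 at 24 hours, and the 6-hour value was -0.93 without C57_timecourse_basal replicate 1 and -0.97 without C57_timecourse_6hIL4 replicate 2. The difference between the strains' responses was -0.91 at 1 hour (adjusted p = 0.029, and 0.051 to 0.14 in the 8 fits without 1 library), -1.38 at 6 hours (SE 0.19, adjusted p = 0.00055) and -0.90 at 24 hours (adjusted p = 0.0039). Only the 6-hour value of these 3 was called (background 2.4%), and at 1 and 24 hours 0 of 10 members were called (backgrounds 0.811% and 6.22%). Without C57_timecourse_24hIL4 replicate 1 the 24-hour value was -1.16, past 2-fold.

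Il1a was higher at 1 and 24 hours and near its basal level at 6 hours. The C57 libraries held 21.7 and 21.1 TPM at basal, 44.4 and 42.9 TPM at 1 hour, 20.2 and 23.3 TPM at 6 hours and 36.4 and 40.1 TPM at 24 hours. SPRET libraries held 37.4 and 38.2 TPM, then 66.1 and 60.5 TPM, 38.0 and 36.6 TPM, and 91.7 and 74.9 TPM. The log2 change in C57 was 1.00 at 1 hour (SE 0.09, adjusted p = 2.6e-05), just under the fold threshold and past it without C57_timecourse_1hIL4 replicate 2 (1.02) or C57_timecourse_basal replicate 1 (1.01). It was 0.02 at 6 hours and 0.81 at 24 hours, and in SPRET 0.73, -0.02 and 1.11. Without SPRET_timecourse_24hIL4 replicate 1 the last value was 0.97. In the table of the 5 strains C57 Il1a had changed by 0.04 at 24 hours, and the tables were not tested together.

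Il1rn and Il1b moved in opposite directions in SPRET during the first 6 hours. Il1rn rose from 71.2 and 73.5 TPM to 106 and 104 TPM at 1 hour and 159 and 159 TPM at 6 hours (log2 change 1.12, SE 0.07, adjusted p = 1.8e-07), and stood at 104 and 94.4 TPM at 24 hours (0.45). Il1b went from 158 and 173 TPM to 106 and 102 TPM at 1 hour, 62.7 and 66.4 TPM at 6 hours (-1.34, SE 0.17, adjusted p = 7.7e-05) and 95.7 and 95.5 TPM at 24 hours (-0.79). Both genes therefore lay nearer to their basal level at 24 than at 6 hours. The 1-hour change of Il1b was less certain, and lay at -0.73 to -0.60 in the fits without 1 library. With all libraries it was -0.66 with an adjusted p of 0.034 in limma. That adjusted p was 0.23 at a pseudocount of 0.1 TPM and 0.080 with no filter on low values. In C57 Il1rn rose only by 24 hours, to 122 and 140 TPM from 96.6 and 90.1 TPM (0.48, SE 0.07), and the response at 6 hours differed between the strains by 0.99 (SE 0.10, adjusted p = 5.8e-05). That value lay between 1.01 and 1.04 without C57_timecourse_6hIL4 replicate 2, C57_timecourse_basal replicate 2 or SPRET_timecourse_basal replicate 2. By 24 hours Il1rn had changed by 0.45 in SPRET and 0.48 in C57. Il1b had changed by -0.79 in SPRET. In C57, where Il1b stood at only 0.60 to 1.19 TPM, it had changed by -0.69, or -0.92 to -0.47 without 1 library. Response differences of over 2-fold, as in the 5-strain table, were therefore not seen for these genes at 24 hours. The 6-hour response of Il1b differed by -0.88 (adjusted p = 0.039), and by -1.12 without C57_timecourse_6hIL4 replicate 1 and -1.08 without C57_timecourse_basal replicate 1. In the other 6 fits without 1 library the value was -0.94 to -0.64 with an adjusted p of 0.072 to 0.15 in limma, so this difference did not hold. Il18 fell by 24 hours in both strains, from 6.64 and 5.26 TPM to 2.10 and 2.78 TPM in C57 (-1.02, SE 0.19) and from 18.3 and 14.4 TPM to 5.19 and 5.16 TPM in SPRET (-1.48, SE 0.19). The C57 value was -0.87 without C57_timecourse_24hIL4 replicate 1 and without C57_timecourse_basal replicate 1. Gsdmd fell at 24 hours in both as well, by 0.58 in C57 and 0.44 in SPRET, and Casp1 fell in C57 by 0.39. Nlrp1b fell in C57 by 0.86 at 24 hours, from 1.31 and 1.44 TPM to 0.43 and 0.19 TPM.

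**Figure D3:**
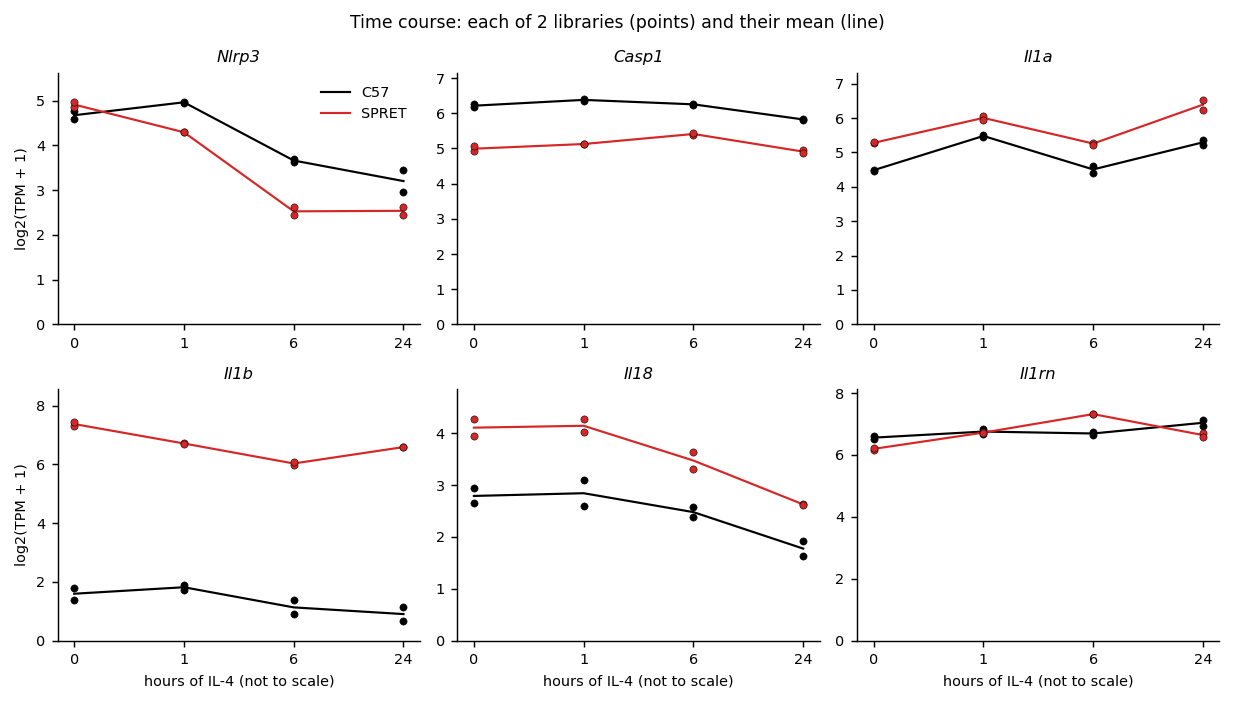
Levels of 6 of the genes, as log2(TPM + 1), over hours of IL-4 (not to scale) in C57 (black) and SPRET (red), with 2 libraries a point and lines through their means. Il1b lies higher in SPRET at every time, and Nlrp3 in SPRET is near its 24-hour level by 6 hours.

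Basal SPRET and C57 were compared again in this table, where 4 of 10 members were called (background 18.8%). Il1b was higher in SPRET by 5.78 on the log2 scale (SE 0.17), with C57 at only 2.47 and 1.63 TPM, where the 5-strain table had 24.9 to 34.6 TPM. Casp1 was lower by 1.22 (SE 0.06), as 29.3 and 32.5 TPM against 75.3 and 71.5 TPM. Il18 was higher by 1.32 and Il1a by 0.80, while in the 5-strain table Il18 differed by 0.26 with an adjusted p of 0.096 in limma and Il1a was lower by 0.61. Il1rn was lower by 0.36 here and by 1.87 there. Nlrp1b was listed at 0 in both basal SPRET libraries, against 1.31 and 1.44 TPM in C57. The neutrophil markers summed to 68.0 to 73.8 TPM in basal SPRET and 66.2 to 94.4 TPM in basal C57 of this table, and Ly6g was at 0 in all 16 libraries. At 24 hours of IL-4 they summed to 72.2 to 92.2 TPM in SPRET and 6.49 to 8.14 TPM in C57. Their part in the differences between these strains was not tested.

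Whether EGR2, a transcription factor induced by IL-4, bears on these genes was compared in Egr2WT and Egr2MKO BMDMs. The labels name LyzM-Cre for Egr2MKO only, so the presence of Cre and the loss of Egr2 cannot be told apart. The deletion was seen in the RNA, as Egr2 stood at 21.3 to 101 TPM in Egr2WT libraries and at 0.85 to 7.05 TPM in Egr2MKO libraries. IL-4 called 7 of 60 pairs in the 2 genotypes. In Egr2WT these were 0 members at 1 hour (background 0.778%), 1 at 6 hours (background 2.86%) and 1 at 24 hours (background 4.35%), and in Egr2MKO 0 (background 0.902%), 2 (background 3.7%) and 3 (background 4.83%). Between genotypes, 1 of 40 pairs was called, at 24 hours (background 4.55%), and 0 at basal (background 0.853%), 1 hour (background 1.06%) and 6 hours (background 2.3%). The neutrophil markers summed to 62.4 to 65.9 TPM in basal Egr2WT and 40.5 to 45.4 TPM in basal Egr2MKO, and to 19.9 to 22.1 and 10.98 to 16.1 TPM at 24 hours. The 6 macrophage markers summed to 24337 to 25888 TPM in basal Egr2WT and 20631 to 20670 TPM in basal Egr2MKO. At 24 hours they summed to 15404 to 15627 TPM in Egr2WT and 12692.5 to 13234 TPM in Egr2MKO. The part of both marker lists in the genotype differences was not tested.

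Nlrp3 fell in both genotypes. Egr2WT libraries went from 25.6 and 27.8 TPM at basal to 11.8 and 11.6 TPM at 6 hours and 9.37 and 9.71 TPM at 24 hours, and Egr2MKO libraries from 31.3 and 30.3 TPM to 13.0 and 13.8 TPM and to 8.84 and 12.3 TPM. The log2 changes were -1.13 and -1.39 in Egr2WT and -1.14 and -1.48 in Egr2MKO. The difference in response was -0.08 at 24 hours (SE 0.15, adjusted p = 0.80), and with this error a small difference in either direction would not have been seen.

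Il1a and Il1rn had the largest differences in the 24-hour response among the members, in opposite directions. Il1a rose at 1 hour in both genotypes, to 23.7 and 21.6 TPM in Egr2WT (log2 change 0.58) and 18.9 and 21.2 TPM in Egr2MKO (0.64), and was then lower in Egr2MKO. The 1-hour values of Il1a had an adjusted p of 0.068 to 0.18 in limma in all 4 fits without 1 library in Egr2WT, and of 0.11 and 0.13 in Egr2MKO without LyzMCreEgr2flfl_1hIL4 replicate 2 or LyzMCreEgr2flfl_basal replicate 2. At 24 hours Egr2WT held 17.8 and 15.2 TPM, near its basal 15.4 and 14.2 TPM, and Egr2MKO 5.83 and 7.37 TPM, below its basal 13.6 and 11.4 TPM. The knockout was lower by 1.21 on the log2 scale at 24 hours (SE 0.12, adjusted p = 1.1e-05) and by 0.60 at 6 hours, and its 24-hour response was lower by 0.98 (SE 0.17, adjusted p = 0.0030). The response difference of Il1a passed 2-fold in 4 of the fits that left out a library, at -1.08 without Egr2flfl_24hIL4 replicate 2, -1.03 without Egr2flfl_basal replicate 1, -1.12 without LyzMCreEgr2flfl_24hIL4 replicate 2 and -1.09 without LyzMCreEgr2flfl_basal replicate 2. Il1rn rose at 24 hours from 35.2 and 36.1 TPM to 48.6 and 50.2 TPM in Egr2WT (0.46, SE 0.12, adjusted p = 0.013, and 0.072 and 0.065 without Egr2flfl_24hIL4 replicate 2 or Egr2flfl_basal replicate 1) and from 27.0 and 28.7 TPM to 77.7 and 106 TPM in Egr2MKO (1.67, SE 0.12, adjusted p = 4.9e-07). The difference in response was 1.21 (SE 0.17, adjusted p = 0.00064), the only member called in this contrast (background 1.9%), and it was 0.99 without LyzMCreEgr2flfl_24hIL4 replicate 2, the library with the highest value. Its level at 24 hours was higher in Egr2MKO by 0.87 (SE 0.12), or by 1.09 without LyzMCreEgr2flfl_24hIL4 replicate 1. By limma, 5 members differed in the 24-hour response by the adjusted p alone (background 12.6%), of which Casp4 (0.44) and Pycard (-0.36) did not in 5 and 6 of the 8 fits without 1 library. At 1 and 6 hours 0 of 10 members were called in this contrast (backgrounds 0.00828% and 0.207%), and at an unadjusted p under 0.05 the counts were 0 at 1 hour and 1 at 6 hours, Il1b.

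Casp4 and Gsdmd were higher in Egr2MKO at all 4 times, though before 24 hours most of these differences did not pass in every fit without 1 library. Casp4 stood at 25.3 and 27.9 TPM in basal Egr2WT against 37.4 and 34.8 TPM in basal Egr2MKO (log2 difference 0.43, SE 0.08, adjusted p = 0.0054) and at 28.5 and 29.5 TPM against 55.8 and 51.4 TPM at 24 hours (0.86, SE 0.08, adjusted p = 7.3e-06). Gsdmd stood at 89.8 and 94.4 TPM against 107 and 105 TPM at basal (0.20, SE 0.05, adjusted p = 0.012), and at 24 hours at 69.4 and 73.1 TPM against 107 and 108 TPM (0.58, SE 0.05, adjusted p = 1.0e-06). For Casp4 the adjusted p in limma was 0.061 and 0.062 at basal without Egr2flfl_basal replicate 1 or LyzMCreEgr2flfl_basal replicate 1, 0.069 to 0.17 at 1 hour in 3 of 4 fits, all except that without LyzMCreEgr2flfl_1hIL4 replicate 1, and 0.078 and 0.055 at 6 hours without Egr2flfl_6hIL4 replicate 2 or LyzMCreEgr2flfl_6hIL4 replicate 2. For Gsdmd it was 0.055 to 0.11 at basal in 3 of 4 fits, all except that without Egr2flfl_basal replicate 2, and 0.087 and 0.062 at 1 hour without Egr2flfl_1hIL4 replicate 1 or LyzMCreEgr2flfl_1hIL4 replicate 2. At 24 hours both genes passed in each of the 4 fits. IL-4 lowered Gsdmd by 0.37 at 24 hours in Egr2WT, and in Egr2MKO its change was 0.02 with an adjusted p of 0.86, a difference in response of 0.38 (SE 0.06, adjusted p = 0.0020). Pycard rose in Egr2WT, from 40.1 and 44.95 TPM to 55.1 and 61.1 TPM, and stood at 40.4 and 40.0 TPM in Egr2MKO at 24 hours (genotype difference -0.52, SE 0.08). Casp1 was higher in Egr2MKO at 24 hours by 0.42 (SE 0.09). In all 6 members differed between genotypes at 24 hours by the adjusted p alone (background 37.4%), where the median difference of all genes was 0.12.

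Il1b was low in this table, between 1.23 and 8.43 TPM. Egr2MKO libraries at basal held 4.58 and 8.43 TPM and Egr2WT libraries 2.65 and 2.89 TPM, a difference of 0.95 with an adjusted p of 0.12 in limma. Its fall in Egr2MKO was called at 6 hours (-1.27) and 24 hours (-1.11), and without LyzMCreEgr2flfl_basal replicate 2 the values were -0.89 and -0.74, with adjusted p of 0.16 and 0.27. The 6-hour value was -0.86 without LyzMCreEgr2flfl_6hIL4 replicate 2 and the 24-hour value -0.77 without LyzMCreEgr2flfl_24hIL4 replicate 2, again past no threshold. Il18 fell in Egr2WT by 0.81 at 6 and 0.95 at 24 hours on the log2 scale, and the 6-hour value was -1.23 without Egr2flfl_6hIL4 replicate 2 and -0.40 without replicate 1 (adjusted p = 0.26). The adjusted p in limma was also 0.12 and 0.11 at 6 hours without Egr2flfl_basal replicate 1 or 2, and 0.053 to 0.061 at 24 hours in all 4 fits without 1 library. In Egr2MKO its 24-hour libraries at 9.53 and 5.55 TPM overlap the basal ones at 11.3 and 9.34 TPM, with a change of -0.44 (adjusted p = 0.23), and the difference in response was 0.51 with an adjusted p of 0.41.

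**Figure D4:**
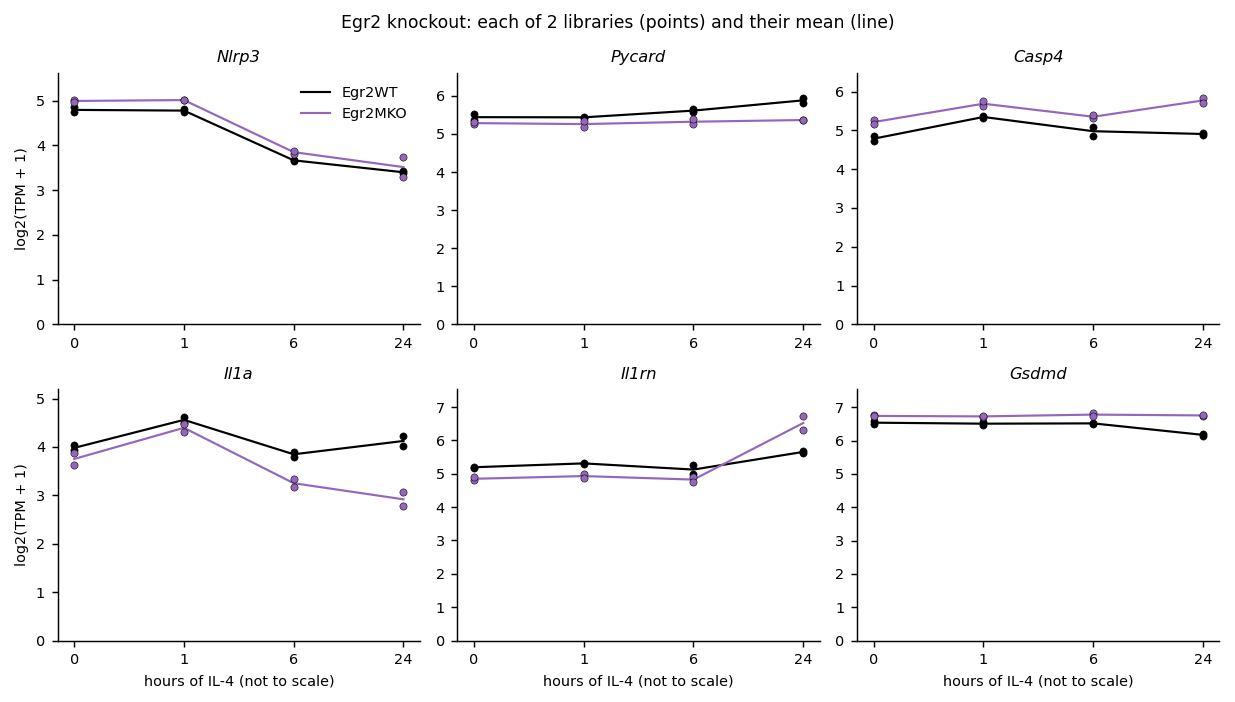
Levels of 6 of the genes, as log2(TPM + 1), over hours of IL-4 (not to scale) in Egr2WT (black) and Egr2MKO (purple), with 2 libraries a point and lines through their means. Il1a is lower and Il1rn higher in Egr2MKO at 24 hours, while the falls of Nlrp3 run side by side.

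Alleles were compared within libraries of the F1 BMDMs, where both parental copies share the same nucleus. The deposited value of each allele is a TPM value weighted by the share of reads that overlap strain variants, so the alleles were compared within libraries only, as log2 ratios with 1 added to each value, and without a test. In the cross of C57 with SPRET all 10 members had values for both alleles under both conditions. At basal, 1 member had alleles that differed over 2-fold without overlap (background 7.6%), which was Nlrp1b, with 3.18 and 3.40 for the C57 allele and 0.58 and 0.63 for the SPRET allele. After IL-4 there was 1 again (background 5.87%), which was Il1b, with 0.38 and 0.38 for the C57 allele and 2.42 and 1.56 for the SPRET allele. The log2 difference of Il1b was 1.31 in replicate 1 and 0.89 in replicate 2, so without replicate 1 the count after IL-4 was 0.

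For Il1b the SPRET allele was the higher one under both conditions, and at basal by less than between the strains. Basal values were 1.98 and 2.19 for the C57 allele and 4.22 and 3.70 for the SPRET allele, ratios of 2.13 and 1.69 where SPRET libraries had 21.4 times the TPM of C57 libraries. After IL-4 the ratios were 6.31 and 4.07, on low values, against 6.24 between the strains. These ratios are of the values without 1 added. With 1 added, the mean log2 difference of Il1b after IL-4 was 1.10 between alleles and 2.59 between strains. Adding 1 shrinks differences of low values by construction. Il1rn went the other way from the parental strains at basal, with 72.7 and 58.3 for the C57 allele and 89.97 and 88.0 for the SPRET allele, a log2 difference of 0.45 (SD 0.20, n = 2) against -1.87 between the strains. After IL-4 the C57 allele was the higher one, at 37.0 and 35.4 against 33.5 and 26.4. The strain values set beside the alleles are those of the 5-strain table. In the basal time course the means of SPRET and C57 were 166 and 2.05 TPM for Il1b and 72.3 and 93.4 TPM for Il1rn. The size of the gap between alleles and strains thus depends on the parental libraries used.

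Casp1 alleles were close, with 128 and 110 for C57 and 114 and 91.2 for SPRET at basal, and 80.1 and 79.1 against 69.8 and 69.5 after IL-4. The SPRET allele was thus 0.83 to 0.89 times the C57 allele across these 4 libraries, where SPRET macrophages had 0.30 times the Casp1 TPM of C57 at basal and 0.33 times after IL-4. Casp4 kept the parental direction, with 23.2 and 25.3 for SPRET against 14.3 and 15.03 for C57 at basal, ratios of 1.63 and 1.68 beside 1.41 between the strains. Nlrp3 showed the C57 allele higher under both conditions, with ratios of SPRET to C57 of 0.68 and 0.71 at basal and 0.59 and 0.66 after IL-4, where the strain ratios were 1.77 at basal and 0.72 after IL-4. In the basal time course the Nlrp3 means were closer, at 29.2 TPM in SPRET and 24.6 TPM in C57. Gsdmd and Pycard lay within 0.82 to 1.19 in all libraries.

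**Figure D5:**
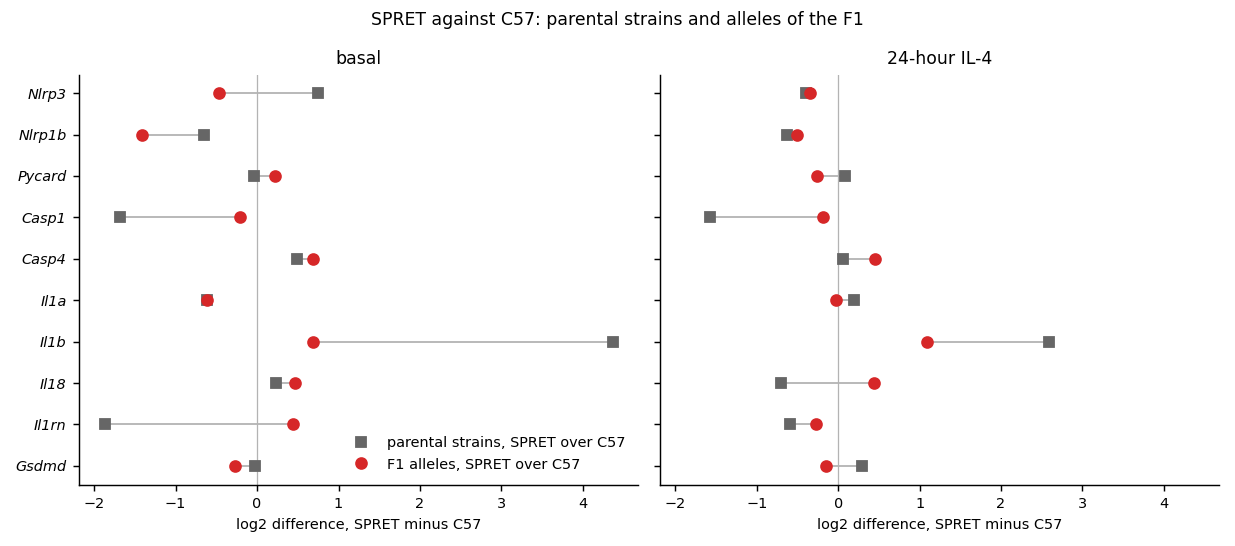
Log2 difference between SPRET and C57 of the 10 genes, in the parental strains (grey squares, means of 3 libraries) and between the alleles of the F1 (red circles, means of 2 libraries), under basal conditions and after 24-hour IL-4. Il1b, Il1rn and Casp1 lie far apart at basal, with 4.37, -1.87 and -1.68 in the strains and 0.69, 0.45 and -0.21 between alleles. All values have 1 added, which shrinks differences of low alleles such as those of Il1b. Nlrp1b is drawn, but its strain and allele values are not compared, as its gene model differs between them.

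In the cross of C57 with NOD, 6 of the 10 members, Il1b, Il1rn, Il18, Casp1, Casp4 and Pycard, were listed at 0 in all 8 allele columns, so the high NOD level of Il1rn could not be set against its alleles. Nlrp1b had 54.6 and 55.1 for the NOD allele against 8.84 and 17.6 for the C57 allele at basal, and 49.4 and 50.9 against 19.3 and 9.43 after IL-4. Among members with both alleles above 0 in both libraries, it was the one whose alleles differed over 2-fold without overlap at basal (background 7.4%) and after IL-4 (background 9.66%). Nlrp1b was not set against the strains, where it stood under 1 TPM in basal NOD and C57. Gsdmd alleles were near equal, with ratios of NOD to C57 of 1.05 and 1.04 under both conditions, where the strain ratios were 0.62 at basal and 0.82 after IL-4. Nlrp3 alleles overlapped at basal, with ratios of 1.19 and 0.90. After IL-4 the C57 allele of Nlrp3 had 15.4 and 17.4 and the NOD allele was listed at 0 in one library and had 12.1 in the other, so it was not counted. Il1a values crossed between the 2 basal libraries, with ratios of 0.35 and 3.13, and 3 of its 4 allele values after IL-4 were listed at 0.

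Other genes of the same pathways were counted on 2 lists set with earlier results known. Of 26 other inflammasome sensors, caspases and regulators tested in the 5 strains, 0 were called by IL-4 in C57, NOD and SPRET. In C57 2 of them rose (background 15%) and 12 fell (20.5%), in BALB 0 (9.45%) and 14 (24.8%), in NOD 6 (28.2%) and 4 (6.07%), in PWK 7 (18.6%) and 2 (6.08%) and in SPRET 5 (31.4%) and 7 (12.9%). The list's median log2 change was -0.17, -0.19, 0.06, 0.07 and 0.04, against medians of all genes of -0.04, -0.11, 0.12, 0.08 and 0.11 in the same order. BALB had 1 called, Gbp5 (-1.07), an interferon-induced GTPase, and PWK 1, Serpinb1a (1.63), an inhibitor of serine proteases. Of 18 IL-1 family ligands, receptors and signalling genes tested, 5 rose and 4 fell in C57, 2 and 5 in BALB, 5 and 2 in NOD, 6 and 4 in PWK and 5 and 1 in SPRET, beside the same backgrounds. Irak3, an inhibitor of IL-1 receptor signalling, was the called gene with the largest fall in C57 (-1.16), BALB (-1.14) and SPRET (-1.57). It was again in the time course at 6 hours in C57 (-1.25) and SPRET (-1.77) and at 24 hours in SPRET (-1.71). The same held at 6 hours in Egr2WT (-1.04) and Egr2MKO (-1.44). Il1rap, a receptor subunit shared by part of the family, rose in SPRET (1.64), and Il18r1, an IL-18 receptor subunit, in PWK (1.27).

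Under basal conditions, against C57, SPRET had 3 inflammasome list genes called higher and 7 lower of 26 (background 18.1% in either direction), led by Serpinb1a (5.32) and Naip2 (-2.94), a sensor of bacterial secretion systems with near-identical gene copies, whose counting is uncertain. On the IL-1 list it had 0 higher and 5 lower of 18, led by Il18bp (-4.06), which binds and neutralizes IL-18. PWK had 2 and 5 on the first list (background 13.3%), led by Serpinb1a (3.24) and Naip2 (-5.22), and NOD 2 and 7 (background 16.9%), led by Gbp5 (2.12) and Txnip (-3.89), whose product binds NLRP3. In Egr2MKO at 24 hours the inflammasome list had 2 of 27 genes called higher (background 4.55%), led by Mefv (1.89), which encodes the sensor pyrin, and 0 lower, and the IL-1 list had 1 of 18 lower, Il1f9 (-1.05), the gene for IL-36γ. In the time course at 24 hours Il1rl2, the receptor of the IL-36 cytokines, was called in C57 (1.77) and its response in SPRET was lower by 1.78.

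The genes whose means followed each member most closely over the 10 strain and condition groups were named among 7406 genes with a mean of at least 5 TPM, as a description. For Il1b they were Wnt6 (Pearson r = 0.97) and Tmem134 (0.96), for Il1rn Akirin2 (0.97) and Inhba (0.97), and for Nlrp3 Aoah (0.91) and Tmem192 (0.87). Casp1 was nearest to Ly9 (0.99) and Lrp12 (0.98), Casp4 to Ppp2r2a (0.95) and Chd7 (0.90), Pycard to P2ry6 (0.97) and Psmc4 (0.94), and Gsdmd to Crk (0.97) and Pddc1 (0.97). Il1a was nearest to Eif4e (0.95) and Mrps18a (0.95), Il18 to Igfbp4 (0.93) and Ypel3 (0.91), and Nlrp1b to Tulp3 (0.96) and Hpse (0.96). The 10 groups come in pairs from 5 strains and are not independent, so these values carry no p.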

How the data were processed

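Per the methods, the authors aligned reads with STAR to the genome of each strain, moved positions to mm10 with MMARGE, and used HOMER to count reads in exons and compute TPM, the deposited unit of the 3 tables with 61 libraries. Whether counting used strand is not given in the sources used here. Columns holding the comparisons that the authors made with DESeq2 (log2 fold change, p and adjusted p) were left out, as were 8 TPM columns of human macrophages that matched no sample given. The F1 allele columns, also deposited as TPM, were weighted by the authors with the ratio of reads over variants times 10, and their depth is unknown. Lengths in the C57 x SPRET table were genomic spans, so genes were not compared within it.

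A gene was tested where 2 or more libraries of its table reached 1 TPM, which left 11907, 12088 and 12079 genes. The test was limma 3.58.1 in R 4.3.3 on log2(TPM + 1), a scale that understates changes of low genes. Each table had 1 model with a mean per group and a trended prior, and the Benjamini-Hochberg adjustment ran over all genes tested in a contrast. Total tags per library gave the depth, and with no counts per gene no counting intervals were given. The code was checked on simulated data. The alternatives were pseudocounts of 0.1 and 5 TPM, no filter, median-ratio scaling, only the groups compared, a replicate block and leaving out each library.

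All 10 members were named, with the called gene of largest change in each direction from each pathway list and the 2 genes of most similar pattern for each member. Members, lists and comparisons were chosen with earlier results of these data known. Tables were normalized separately and were not tested against each other. Figures were drawn with matplotlib 3.10.9.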

Additional observations from a re-analysis of the deposited data

Results flagged for a closer look

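A total of 5 results of the members were marked because the difference between 2 responses to IL-4 passed the interaction test of limma at an adjusted p under 0.05 and over 2-fold. In the 5 strains, SPRET differed from C57 in the response of Il1b (-1.79 on the log2 scale), Il1rn (1.28) and Nlrp3 (-1.15). In the time course, Nlrp3 at 6 hours differed between SPRET and C57 by -1.38. At 24 hours, the time used in the 5 strains, 0 of 10 members were called there (background 6.22%), and Nlrp3 differed by -0.90. The differences of Il1b and Il1rn were thus not seen again at over 2-fold. In the Egr2 table, the 24-hour response of Il1rn differed between Egr2MKO and Egr2WT by 1.21. Groups held 2 or 3 libraries, too few for a check of single libraries against their group.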

How the results depend on the processing

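Of the counts of called members, pseudocounts moved the following by over 1.5 times. At 0.1 TPM, strains against C57 after IL-4 went from 6 to 10, the time course response difference from 1 to 3, the Egr2 response difference from 1 to 2, and the C57 x SPRET alleles from 1 to 2 at basal and from 1 to 2 after IL-4. At 5 TPM, basal SPRET against C57 in the time course (an alternative chosen after seeing the data) went from 4 to 2, IL-4 in the Egr2 table from 7 to 3 and Egr2MKO against Egr2WT from 1 to 0. A larger pseudocount shrinks changes of low genes by construction. Median-ratio scaling moved the strain response difference from 3 to 5 and the Egr2 response difference from 1 to 2, and turned 3 values, Il1rn with IL-4 in NOD to -0.018, basal Nlrp3 in NOD against C57 to 0.121 and Il1a after IL-4 in SPRET against C57 to -0.018, none with an adjusted p under 0.05 in limma. The cause was not tested.

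Leaving out each library in turn gave 1 to 3 called members for the time course response difference, 1 to 2 for Egr2MKO against Egr2WT and 1 to 2 for the Egr2 response difference. The allele counts were 2 and 2 in C57 x NOD at basal and 0 to 1 in C57 x SPRET after IL-4. No filter and only the groups compared moved no count by over 1.5 times, although 5 values of Nlrp1b could not be fitted among only the groups compared, since the gene did not pass the filter there. By the adjusted p alone, of 200 changes of members, 21 were lost among only the groups compared, where fewer libraries set the spread, 17 with median-ratio scaling, 10 with no filter, 4 at a pseudocount of 0.1 TPM and 3 at 5 TPM.

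With the replicate number as a block, the counts of called members were the same 7, 10, 6 and 3 in the 5 strains, 9, 1 and 4 in the time course and 7, 1 and 1 in the Egr2 table, and no call of a member by the adjusted p was lost. Deviations of same-numbered libraries correlated on average by 0.013, 0.03 and -0.005 in the 3 tables. These averages run over pairs of groups from any strain or genotype, and in the 5 strains single pairs reached 0.333. The block was likewise shared by all groups of a table. Pairing of basal and IL-4 libraries within a strain or genotype was therefore not tested.

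The median over all genes shifted by over 0.1 on the log2 scale for IL-4 in BALB (-0.11), NOD (0.12) and SPRET (0.11), for basal NOD (-0.29) and PWK (-0.16) and for NOD (-0.13) and SPRET (0.18) after IL-4. It also did for the response differences of NOD (0.17), PWK (0.13) and SPRET (0.16). With 2 or 3 libraries a group, depth that differed several-fold between libraries and no counts per gene, values near or under 1 TPM, as for Nlrp1b, are the least certain.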
